A study of Mus musculus with 96 samples.

Results

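The 8 genes that encode inhibitors of cyclin-dependent kinases (CDKs) in mouse, Cdkn1a, Cdkn1b, Cdkn1c, Cdkn2a, Cdkn2b, Cdkn2c, Cdkn2d and Cdkn3, were followed in single cells of the C10 line, derived from mouse lung and labelled as alveolar type II epithelial. They were taken by symbol from the 40202 genes listed in every count table, and all 8 were found. The groups were control, labelled as having no treatment although the text on the treatment stands with every sample, and RO-3306, a small molecule used to block the mitotic kinase CDK1, given for 36 h at a dose that the labels put at 10 nM, which is far below the doses commonly used and could not be checked in these files. Each group had 48 libraries of 1 cell each, dispensed with a CellenONE sorter, and both were cultured alike in RPMI medium with serum. The method named in the series title, nanoSPLITS, divides the lysate of a cell between RNA and protein measurement, so each library holds RNA from part of a cell, and the protein part was not analysed here. No separate dish, passage or culture is named for the cells, which makes each treatment 1 sample with no replicate, and no difference below has a p-value or a replicate check.

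CDK inhibitors hold back the cell cycle by binding cyclin-dependent kinases. The CIP/KIP proteins p21 (Cdkn1a), p27 (Cdkn1b) and p57 (Cdkn1c) bind complexes of a cyclin with its kinase, above all those of CDK2. The INK4 proteins p16 (Cdkn2a, which also encodes p19ARF in another reading frame), p15 (Cdkn2b), p18 (Cdkn2c) and p19 (Cdkn2d) bind free CDK4 and CDK6 and keep D-type cyclins from joining them. The Cdkn3 protein, also called KAP, is a phosphatase that removes the activating phosphate from CDK2, and its transcript belongs to those that peak around mitosis. Cdkn1a is a textbook target of the transcription factor p53, and p18 and p19 transcripts are known to vary through the cell cycle.

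Of the 48 libraries per group, 29 control and 37 RO-3306 cells were kept, those with a total of 50000 counts or more and 1000 detected genes or more. Totals of kept cells ran from 59979 to 6457210 counts in control and from 295005 to 5321880 in RO-3306. Levels are sums of the counts of a group's kept cells, scaled to a total of 1000000 (CPM), with 95% exact Poisson intervals in parentheses. These intervals cover at most the counting error of reads. Reads carry no molecular identifiers, so copies of 1 molecule count separately and the intervals are too narrow even for that. They do not cover the spread between cells or cultures. A second scale divides CPM by the mRNA length in kb and is used where the genes are ranked or compared within cells. Sums over families and lists are in plain CPM. The log2 ratio is that of RO-3306 CPM over control CPM after adding 1 CPM to both, which pulls the ratio of low genes towards 0. Library titles carry the letters A to D, whose meaning is not given. These 4 lettered sets (10, 8, 6 and 5 control cells, 10, 10, 11 and 6 RO-3306 cells) were used to see how far a difference held in separate groups of cells, and they are not replicates.

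Transcripts that define the labelled cell type, those of the surfactant genes, were at or near 0 in the kept cells. Of the 10 alveolar type II markers, Sftpa1, Sftpc, Sftpd, Slc34a2 and Napsa had no count in either group, and the whole list summed to 23.5 CPM in control (0 to 109 CPM per cell) and 27.7 CPM in RO-3306 (0 to 349). The 6 epithelial markers summed to 1.78 and 0.978 CPM (0 to 396 and 0 to 48.2 CPM per cell), with Krt18 and Cldn4 at 0. The 6 mesenchymal markers summed to 5579 CPM for control (1329 to 11354 per cell) and 2523 CPM for RO-3306 (1263 to 13886 per cell). Of the 6, 3 were at least 2-fold lower in RO-3306, against 24.2% of all genes averaging 5 CPM or more over the groups. Of these 3, Col1a1 and Col3a1 were lower in each lettered set, while Fn1 was not lower in set A. The 10 macrophage markers summed to 32.1 and 15.9 CPM (0 to 253 and 0 to 117 per cell), with Marco, C1qa, C1qb and Tyrobp at 0. The part of the mesenchymal difference in the results below was not tested.

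Upstream sequence is shown for the 3 CDK inhibitor genes whose summed level differed at least 2-fold between the groups, Cdkn1a, Cdkn3 and Cdkn2c, to set the motifs in them beside their levels. The RefSeq promoter table (GRCm38.p6, an older assembly than that of the counts) had entries for 7 of the 8 genes, with 10 start sites in all, and Cdkn1c was not among them. Each line gives the 250 bases before the first listed start, 5′ to 3′ on the strand of the gene, with motif matches in capitals. For Cdkn1a (chr17:29090729-29090978, plus strand) the capitals mark a p53 response element, 20 bases made of a pair of decamers with no spacer. For Cdkn3 (chr14:46760291-46760540, plus strand) they mark a CHR element and 3 CCAAT boxes, motifs known from genes of the G2/M transition. For Cdkn2c (chr4:109666757-109667006, minus strand) they mark an E2F core.
Cdkn1a: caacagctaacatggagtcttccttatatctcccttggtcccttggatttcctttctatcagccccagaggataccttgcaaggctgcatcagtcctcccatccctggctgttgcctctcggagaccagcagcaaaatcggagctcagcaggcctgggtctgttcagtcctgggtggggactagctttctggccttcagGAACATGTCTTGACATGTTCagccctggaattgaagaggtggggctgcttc
Cdkn3: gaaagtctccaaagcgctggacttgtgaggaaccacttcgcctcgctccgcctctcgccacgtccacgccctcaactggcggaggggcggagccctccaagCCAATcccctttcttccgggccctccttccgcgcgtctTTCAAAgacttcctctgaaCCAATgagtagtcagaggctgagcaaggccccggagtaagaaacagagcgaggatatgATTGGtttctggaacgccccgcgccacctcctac
Cdkn2c: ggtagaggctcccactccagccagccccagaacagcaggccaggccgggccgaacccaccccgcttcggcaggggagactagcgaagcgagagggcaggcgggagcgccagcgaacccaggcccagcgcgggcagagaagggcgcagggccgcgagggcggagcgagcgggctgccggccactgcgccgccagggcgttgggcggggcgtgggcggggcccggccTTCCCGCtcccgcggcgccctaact

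All motifs were searched on both strands. The p53 element was allowed up to 2 mismatches with both cores intact. The match in Cdkn1a, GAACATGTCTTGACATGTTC, had 1 mismatch and lay 51 to 32 bases before the first start. The second Cdkn1a start lies 2790 bases further downstream, and the 250 bases before it held no match. Only 44 of the 32851 upstream windows in the table, 0.134%, held such an element, and no other window of the CDK inhibitor genes did. The CHR letters TTTGAA lay 111 to 106 bases before the Cdkn3 start, as TTCAAA on the strand shown, and 16% of all windows held them. The CCAAT letters began 149, 92 and 34 bases before the Cdkn3 start, the last of them as ATTGG, and 33.8% of windows held at least 1. The E2F core TTCCCGC lay 25 to 19 bases before the Cdkn2c start, and 5.62% of windows held TTCCCGC or TTGGCGC. The window of the second Cdkn2c start held none of these motifs. Apart from the p53 element, the same motifs lay before other CDK inhibitor genes, with an E2F core in Cdkn2a, a CHR in Cdkn2b, 2 CCAAT boxes in Cdkn1b and 1 in Cdkn2d. Of these, only Cdkn2d had counts enough to compare, and its summed levels were alike in the groups. Cdkn1b and Cdkn2a averaged under 5 CPM, and the level of Cdkn2b could not be read. A match is a stretch of letters and not a measured binding site. Of the 44 genes with a p53 match in such a window, 13 averaged 5 CPM or more here, with 3 at least 2-fold higher in RO-3306 (Cdkn1a, Ss18l2 and Zfp365), 4 at least 2-fold lower (Bbs2, Bmp4, Gpam and Kif23) and a median log2 ratio of 0.32. Over all genes of that level, 12.2% were at least 2-fold higher, 24.2% lower and the median was -0.22. The 13 genes include Cdkn1a itself, whose difference was already known.

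Of the 8 CDK inhibitor genes, 3 differed at least 2-fold between the groups, beside 36.4% of all genes averaging 5 CPM or more. Of the 3, Cdkn1a of the CIP/KIP family was higher and Cdkn2c of the INK4 family lower, a single gene of each family. Cdkn1a and Cdkn3 were at least 2-fold higher in RO-3306 cells, where 12.2% of the 9374 genes averaging 5 CPM or more over the groups (the measured genes) were. Cdkn2c was at least 2-fold lower, where 24.2% of those genes were. Cdkn2d had similar levels in both groups, Cdkn1b was low in both, Cdkn2a had 2 counts in 1 control cell, and Cdkn1c and Cdkn2b had none. The median log2 ratio over the 9374 genes was -0.22, with quartiles of -0.98 and 0.43. Scaling by TMM factors adds up to 0.21 to a log2 ratio, and by DESeq2 size factors up to 0.24. Under these scalings 15.8% and 16.3% of genes were at least 2-fold higher and 19.3% and 18.8% lower, and the 3 genes kept their calls.

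**Figure D1:**
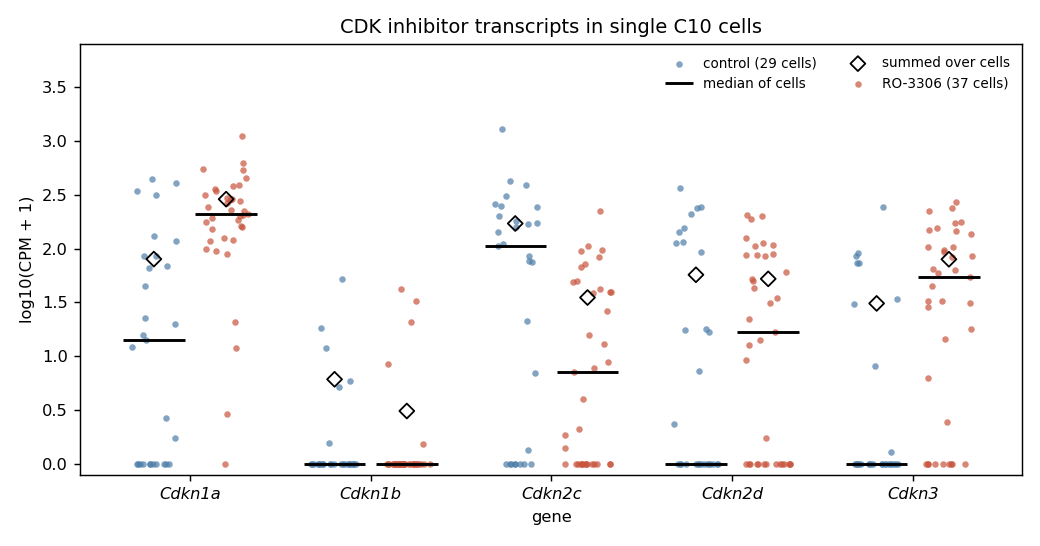
Level of 5 CDK inhibitor genes in each kept cell, as log10(CPM + 1), in control (29 cells) and RO-3306 (37 cells). Each point is a cell, the bar is the median over cells and the diamond is the summed level. Nearly all RO-3306 cells have Cdkn1a counts, while many control cells sit at 0, and the Cdkn2c points of RO-3306 lie lower than those of control.

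Among the CIP/KIP genes, Cdkn1a (chromosome 17, 29309953 to 29319696 on GRCm39, plus strand, the assembly named in the count files) carried almost all counts. In the 29 control cells its level ran from 0 to 443 CPM with a median of 13.3, and its quartiles were 0 and 84.1 CPM. In the 37 RO-3306 cells it ran from 0 to 1110 CPM with a median of 208, and its quartiles were 124 and 315 CPM. The ranges of single cells overlapped, whereas the upper quartile of control lay below the lower quartile of RO-3306. Summed over cells, the level was 78.9 CPM (76.8 to 81.1) for control and 287 CPM (283 to 290) for RO-3306, a log2 ratio of 1.85 and a ratio of 3.63 (3.53 to 3.74). Control cell A3 alone held 36.9% of the control counts.

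More cells had any Cdkn1a count in the RO-3306 group. At full depth these were 18 of 29 in control and 36 of 37 in RO-3306. To compare such shares, every cell was thinned at random to 639000 counts, which left 25 control and 34 RO-3306 cells. Cdkn1a was then found in 14 of 25 control cells, or 56% (exact Clopper-Pearson 95% interval 34.9% to 75.6%), and in 33 of 34 RO-3306 cells, or 97.1% (84.7% to 99.9%). Intervals of this kind, here and below, treat cells as independent draws and do not cover differences between cultures. Among the cells with a count at full depth, the median level was 66.9 CPM (control) and 215 CPM (RO-3306), so the difference lay both in how many cells had a count and in the level of those that did.

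Cdkn1a levels of the lettered sets lay close together in RO-3306 and far apart in control. The summed RO-3306 level was 278, 315, 280 and 275 CPM in sets A, B, C and D. The control level was 128, 59.6, 44.3 and 20.3 CPM in the same order, and the highest control set lay below the lowest RO-3306 set. How many of all measured genes had sets apart in this way was not computed. The log2 ratio was 1.12, 2.38, 2.63 and 3.69. Of all measured genes, 7.23% were at least 2-fold higher with the same sign in the 4 sets. Without set A in either group, the set that holds control cell A3, the pooled log2 ratio was 2.52, and without cell A3 alone it was 2.38.

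Cdkn1b (chromosome 6, 134897364 to 134902488, plus strand) had a mean under 5 CPM and was not among the measured genes. Its level ran from 0 to 50.8 CPM in control cells and from 0 to 41.5 CPM in RO-3306 cells, with a median of 0 in both, and 6 of 29 and 5 of 37 cells had a count. At equal depth these were 20% (6.83% to 40.7%) and 14.7% (4.95% to 31.1%) of cells. Summed, control had 5.12 CPM (4.59 to 5.69) and RO-3306 2.11 CPM (1.83 to 2.43), a log2 ratio of -0.98. That difference rested on control cell B6, which held 63.0% of the control counts, and without it the log2 ratio was 0.04. The p27 protein is known to be controlled largely by its breakdown, which transcript counts do not show.

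Cdkn1c (chromosome 7, 143012076 to 143014802, minus strand), an imprinted gene, had no count in any kept cell. A count of 0 allows up to 3 counts per group, or 0.0454 CPM for control and 0.0323 CPM for RO-3306. After thinning it was found in 0 of 25 control and 0 of 34 RO-3306 cells, which by the same limit leaves room for a count in up to 12% and 8.82% of cells and does not limit the share of cells expressing the gene. The summed CIP/KIP level was therefore nearly that of Cdkn1a, with 84.1 CPM (81.9 to 86.3) for control and 289 CPM (286 to 292) for RO-3306.

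Of the INK4 genes that could be read, Cdkn2c (chromosome 4, 109518073 to 109523953, minus strand), which encodes p18, had the highest summed level in control cells. It was lower after RO-3306. In control cells its level ran from 0 to 1292 CPM with a median of 106. In RO-3306 cells it ran from 0 to 221 CPM with a median of 6.19. The highest RO-3306 cell, D6, stood above the upper quartile of control (201 CPM), and the interquartile ranges of the groups overlapped, since the lower quartile was 0 in both and the upper quartile of RO-3306 was 41.6 CPM. The summed level was 170 CPM (167 to 173) for control and 34.1 CPM (32.97 to 35.4) for RO-3306, a log2 ratio of -2.28, which put control 4.98-fold higher (4.79 to 5.19).

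Cdkn2c was detected in most cells of both groups, with a count in 21 of 29 control and 23 of 37 RO-3306 cells. At equal depth it was found in 19 of 25, or 76% (54.9% to 90.6%), and in 19 of 34, or 55.9% (37.9% to 72.8%). These intervals overlap, but they are over cells and give no test between the treatments. Among cells with a count the median was 168 CPM (control) and 38.4 CPM (RO-3306). Single cells carried much of the sums, since control cell B1 held 28.96% of the control counts and RO-3306 cell D6 held 30.9% of the RO-3306 counts.

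In sets A, B, C and D the Cdkn2c level was 66.6, 284, 169 and 123 CPM in control. The RO-3306 level was 12.6, 22.7, 18.8 and 84.3 CPM in the same order. Control was the higher group in each set, but the RO-3306 level of set D lay above the control level of set A. The log2 ratio was -2.31, -3.58, -3.10 and -0.54, and 6.43% of measured genes were at least 2-fold lower with the same sign in the 4 sets. The pooled ratio moved to -1.34 without set B and to -3.18 without set D, so its size depended on which cells were summed.

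**Figure D2:**
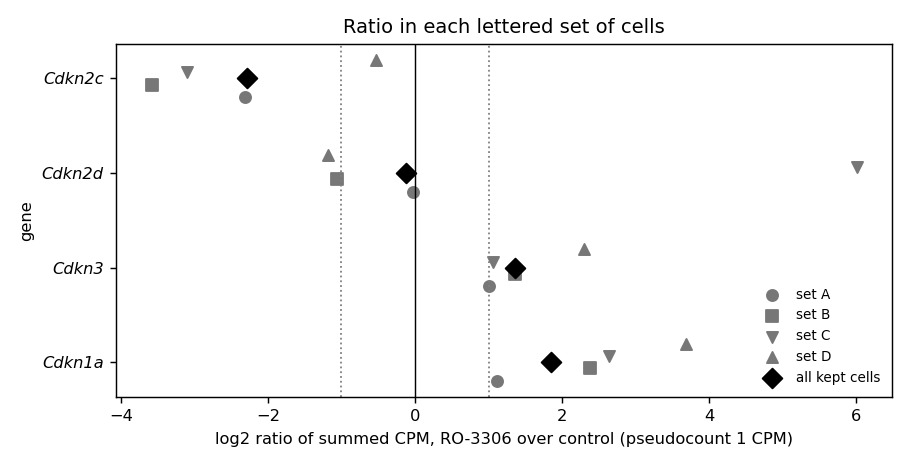
Log2 ratio of summed CPM (x axis, RO-3306 over control, pseudocount 1 CPM) for 4 CDK inhibitor genes (y axis), in each lettered set of cells (grey symbols) and over all kept cells (black diamond). Dotted lines mark a 2-fold difference. Cdkn1a and Cdkn3 lie right of 0 and Cdkn2c left of 0 in the 4 sets, while Cdkn2d lies on both sides.

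Cdkn2d (chromosome 9, 21199755 to 21202717, minus strand), which encodes p19, had like summed levels in the groups. It ran from 0 to 368 CPM in control cells with a median of 0 and from 0 to 202 CPM in RO-3306 cells with a median of 15.7. The sums were 56.2 CPM (54.4 to 58.0) and 51.4 CPM (49.9 to 52.9), a log2 ratio of -0.13. That sign is not settled, because scaling by TMM factors gave 0.08 and DESeq2 size factors gave 0.10. A count was found at equal depth in 12 of 25 control cells, or 48% (27.8% to 68.7%), and in 21 of 34 RO-3306 cells, or 61.8% (43.6% to 77.8%).

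The lettered sets showed no common direction for Cdkn2d. Control had 52.6, 73.9, 0.249 and 66.9 CPM in sets A, B, C and D, and RO-3306 had 51.5, 34.9, 79.7 and 28.9 CPM. In set C only 1 of 6 control cells had a count, with 2 counts, against 9 of 11 RO-3306 cells. Without set B the pooled log2 ratio was 0.33 and without set C it was -0.75.

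The genes of the Cdkn2a locus gave next to no counts. Cdkn2a (chromosome 4, 89192710 to 89212856, minus strand) had 2 counts, both in control cell B1, or 0.0303 CPM (0.00367 to 0.109), and 0 counts in RO-3306, which allows up to 0.0323 CPM. Mtap, an enzyme of methionine salvage encoded near Cdkn2a and chosen after its values were seen, stood at 404 and 210 CPM in control and RO-3306, with counts in 26 of 29 and 34 of 37 cells. Cdkn2b (chromosome 4, 89224526 to 89229269, minus strand) had 0 counts, but 100% of its span lies inside that of Gm12610. By the counting tool's default, reads over 2 gene spans are left out, so the 0 of Cdkn2b says nothing of its transcript. Gm12610 itself had 0.0606 and 3.31 CPM, in 1 of 29 and 3 of 37 cells. Of the 8 genes, Cdkn2b alone overlapped another gene span.

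Summed over the INK4 genes, the level was 226 CPM (223 to 230) for control and 85.5 CPM (83.7 to 87.4) for RO-3306, a log2 ratio of -1.39. Cdkn2b enters as 0 although its level could not be read, so the sum is in effect that of Cdkn2c and Cdkn2d. Their own log2 ratios were -2.28 and -0.13, so the difference in the sum came from Cdkn2c. By set the sum was 119, 358, 169 and 190 CPM in control and 64.1, 57.6, 98.6 and 113 CPM in RO-3306. The lowest control set lay just above the highest RO-3306 set, and how often other genes had sets apart in this way was not computed.

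Cdkn3 (chromosome 14, 46997912 to 47008987, plus strand) was the other gene that was higher in RO-3306. In control cells its level ran from 0 to 243 CPM with a median of 0, and in RO-3306 cells from 0 to 272 CPM with a median of 53.04. The highest cells of the groups were close, and a count was found in 9 of 29 control and 28 of 37 RO-3306 cells. At equal depth it was 8 of 25, or 32% (14.9% to 53.5%), against 26 of 34, or 76.5% (58.8% to 89.3%). Among cells with a count the medians were 72.3 and 83.7 CPM.

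The summed Cdkn3 level was 29.99 CPM (28.7 to 31.3) for control and 78.6 CPM (76.8 to 80.5) for RO-3306, a log2 ratio of 1.36 and a ratio of 2.62 (2.49 to 2.76). By set, control had 29.6, 30.6, 45.2 and 12.9 CPM and RO-3306 had 60.5, 80.2, 95.7 and 67.8 CPM. The sets of the groups did not overlap, and how many of all measured genes had sets apart in this way was not computed. The log2 ratios were 1.01, 1.36, 1.07 and 2.30, and 7.23% of measured genes were at least 2-fold higher with the same sign in the 4 sets. Counts of Cdkn3 were fractional, from reads shared with other sites, in 55.6% of the control and 28.6% of the RO-3306 libraries with a count. For Cdkn1a these shares were 33.3% and 44.4%, and for Cdkn2c 38.1% and 13.04%.

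Per kb of mRNA, the order of the genes differed between the groups. In control it was Cdkn2c (68.9 CPM per kb), Cdkn2d (39.5), Cdkn1a (37.95), Cdkn3 (15.4) and Cdkn1b (1.12). Over the lettered sets, control Cdkn2c ran from 26.9 to 115 CPM per kb, Cdkn2d from 0.175 to 51.9, Cdkn1a from 9.78 to 61.5 and Cdkn3 from 6.62 to 23.1. Neighbours in that order overlapped, apart from Cdkn1b, which reached at most 2.08 CPM per kb in any set. In RO-3306 the order was Cdkn1a (138 CPM per kb), Cdkn3 (40.3), Cdkn2d (36.1), Cdkn2c (13.8) and Cdkn1b (0.463). There Cdkn1a ran from 132 to 151 CPM per kb over the sets and stood above all others. Cdkn3 (31.02 to 49.0) and Cdkn2d (20.3 to 56.0) overlapped, and so did Cdkn2d and Cdkn2c (5.09 to 34.1). As a share of the per-kb total of the 8 genes, Cdkn2c made up 42.3% in control and 6.04% in RO-3306, and Cdkn1a 23.3% and 60.3%.

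**Figure D3:**
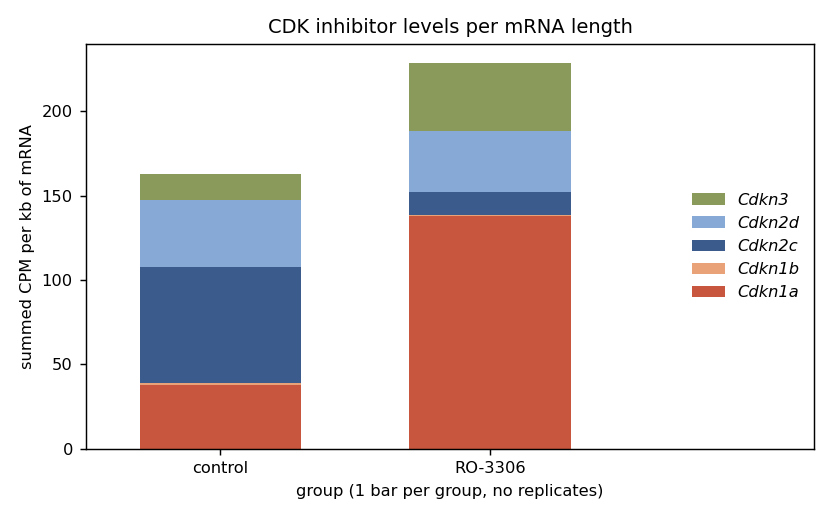
Summed CPM per kb of mRNA (y axis) of 5 CDK inhibitor genes, stacked for control and RO-3306, with 1 bar per group and no replicates. Cdkn2c is the thickest band of the control bar and Cdkn1a that of the RO-3306 bar.

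In cells thinned to equal depth, the median number of the 8 genes detected was 2 in control and 3 in RO-3306. Per kb, Cdkn1a was the higher of Cdkn1a and Cdkn2c in 6 of the 25 control cells, as against 32 of the 34 RO-3306 cells. Cdkn2c was the higher in 15 control cells and in 1 RO-3306 cell. Cells with Cdkn2c and no Cdkn1a count numbered 7 in control and 0 in RO-3306, and cells with both numbered 12 and 19. Cdkn1a without Cdkn2c was found in 2 and 14 cells, and 4 control cells and 1 RO-3306 cell had neither gene. Within a group the levels of the genes varied largely apart. The highest of the Spearman correlations between pairs of Cdkn1a, Cdkn2c, Cdkn2d and Cdkn3 was 0.384, for Cdkn2d and Cdkn3 over 25 control cells, and it was 0.07 over 34 RO-3306 cells. Such values come from sparse counts of cells of 1 sample and are descriptions only.

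**Figure D4:**
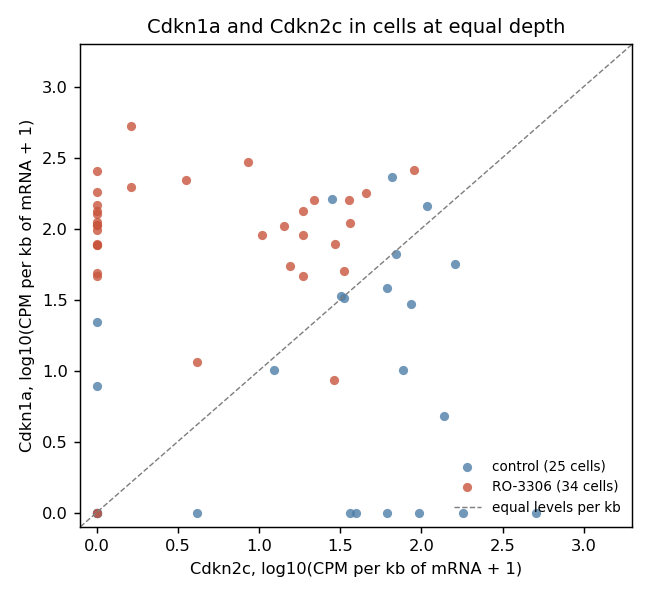
Cdkn1a (y axis) against Cdkn2c (x axis) in cells thinned to equal depth, as log10(CPM per kb of mRNA + 1), for 25 control and 34 RO-3306 cells. The dashed line marks equal levels per kb. Of the RO-3306 cells, 32 lie above it, and 15 of the control cells lie below.

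Genes around these loci were read from the same tables. Trp53cor1, a noncoding transcript known as lincRNA-p21, lies 11852 bases from Cdkn1a and is the nearest gene on its upstream side. Its level was 3.95 CPM for control and 6.29 CPM for RO-3306, with counts in 5 of 29 and 22 of 37 cells. On the other side, Rab44 had 4.52 and 3.65 CPM. Lockd, a noncoding transcript 3566 bases downstream of Cdkn1b, stood at 73.0 CPM in the control sum and 116 CPM in the RO-3306 sum, with counts in 25 of 29 and 35 of 37 cells, so it was detected far more often than Cdkn1b. Faf1, the upper neighbour of Cdkn2c, had 48.1 and 76.8 CPM, the reverse order of Cdkn2c. Cnih1, next to Cdkn3, had 190 and 173 CPM, and Kri1, 489 bases from Cdkn2d, had 3.18 and 6.28 CPM.

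Lists of genes that act with the CDK inhibitors were read the same way. Of 20 genes for p53 and its targets, 17 were measured. Of these, 7 were at least 2-fold higher in RO-3306 and 0 lower, against 12.2% and 24.2% of all measured genes. The same sign in the 4 sets was kept by 5 of the 7, against 7.23% of all measured genes higher in this way. Gadd45a was lower in set A and Bbc3 in set C. The list median log2 ratio was 0.81 against -0.22 over all measured genes. Lower by less than 2-fold were Btg2 (-0.82), Sesn1 (-0.51), Aen (-0.48) and Plk2 (-0.28). The 3 largest with the same sign in the 4 sets were Trp53inp1, a stress-induced partner of p53 (20.5 CPM in control and 80.3 in RO-3306, log2 ratio 1.92), Mdm2, the ubiquitin ligase that degrades p53 (74.0 and 233 CPM, 1.64), and Ccng1, cyclin G1 (241 and 661 CPM, 1.45). Trp53 itself stood at 362 CPM for control and 314 CPM for RO-3306, a log2 ratio of -0.20, and Pmaip1 and Perp were at 0. The summed level of the list ran from 352 to 5083 CPM over control cells and from 669 to 7483 CPM over RO-3306 cells. The list does not hold Cdkn1a itself, and cells with more Cdkn1a tended to have a higher sum of it, with a Spearman correlation of 0.597 over 25 control cells and 0.390 over 34 RO-3306 cells at equal depth.

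Of 12 CDK and cyclin genes, the binding partners of the inhibitors, 11 were measured, with 1 at least 2-fold higher, 3 lower and a median of -0.16, counts close to the 12.2% higher and 24.2% lower of all measured genes. Ccnd1, cyclin D1, stood at 63.5 and 168 CPM (control, then RO-3306; log2 ratio 1.39). Cdk6, a kinase bound by the INK4 proteins, had 185 and 50.2 CPM (-1.86). Cdk4, the other INK4 target, had 896 and 1066 CPM (0.25). Cdk2 was at 0, and 100% of its span lies inside other gene spans, so its counts could not be read either.

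Of 13 genes for pocket proteins and E2F factors, which act downstream of the kinases, 11 were measured. Of these, 3 were at least 2-fold higher and 1 lower, against 12.2% and 24.2% of all measured genes, and the list median was -0.39. E2f3 was the only gene of this list past 2-fold with the same sign in the 4 sets (3.58 CPM in control, 31.02 CPM in RO-3306, log2 ratio 2.81). The 13 genes listed for ubiquitin ligases that affect the breakdown of p21 and p27, directly or not, were all measured. Of them 1 was higher and 1 lower, against the same 12.2% and 24.2%, and the list median was -0.16. The lower one was Ddb1, an adaptor of CUL4 ligases (209 and 81.7 CPM, -1.34). Of 22 other regulators of CDK inhibitor transcription, 18 were measured, with 0 higher, 7 lower and a median of -0.86, against 24.2% lower and a median of -0.22 over all measured genes. Among those 7, Ets1, a transcription factor known to act on the p16 gene, kept its sign in the 4 sets (110 and 16.9 CPM, -2.63).

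The 12 mitotic genes that share the expression peak of Cdkn3 were all measured. Of them 0 were at least 2-fold higher and 2 lower, against 12.2% and 24.2% of all measured genes. The median of the 12 was 0.14, against -0.22 over all measured genes and 1.36 for Cdkn3 itself. Their summed level was 2810 CPM for control and 3605 CPM for RO-3306, and at equal depth the median cell had 2113 and 3548 CPM. The 2 lower ones, Plk1 (109 and 44.8 CPM) and Tpx2 (202 and 81.9 CPM), were chosen after their values were seen and changed sign between sets. Over single cells at full depth the sum ran from 197 to 6871 CPM in control and from 5.82 to 8624 CPM in RO-3306. At equal depth its Spearman correlation with Cdkn3 was 0.314 over 25 control cells and 0.476 over 34 RO-3306 cells. With Cdkn2c it was 0.487 and -0.170.

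**Figure D5:**
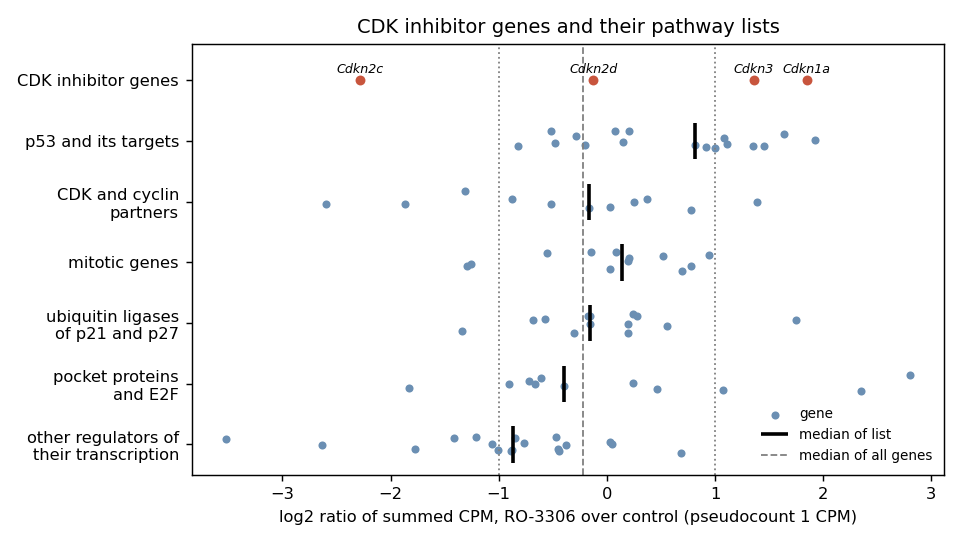
Log2 ratio of summed CPM (x axis, RO-3306 over control, pseudocount 1 CPM) of the 4 measured CDK inhibitor genes and of the measured genes of 6 lists. Each point is a gene, the black bar is the list median, the dashed line is the median of all measured genes and dotted lines mark a 2-fold difference. The p53 list has its median at 0.81 and the list of other transcription regulators at -0.86.

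The genes most like each inhibitor in their pattern across cells were sought for Cdkn1a and Cdkn2c, the 2 with a count in at least 50% of the thinned cells of both groups. The measure was the mean over the groups of Spearman's rho within each group, over 25 control and 34 RO-3306 cells, among 3555 candidate genes. For Cdkn1a the 5 highest were Hspb11 (0.533), Serinc3 (0.525), Phyh (0.502), Ccng1 (0.487) and Nxt1 (0.476), where the median candidate had 0.0503. Of these, Serinc3 (log2 ratio 1.13) and Ccng1 (1.45) were at least 2-fold higher in RO-3306, Hspb11 (0.87) was higher by less, and Phyh (-0.22) and Nxt1 (-0.39) were lower. For Cdkn2c the highest included H4c4, a histone H4 gene (0.541), Hmgb2, a chromatin protein (0.506), Id3, an inhibitor of basic helix-loop-helix factors (0.429) and Chmp1a (0.423), where the median candidate had 0.00855. These 4 were lower in RO-3306, H4c4 (-1.09) and Id3 (-1.06) by at least 2-fold. The highest of so many correlations are large by selection, and the values are descriptions.

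Depth and the share of mitochondrial counts differed between the groups and stand beside every result above. Kept cells had median totals of 1753430 (control) and 2234310 (RO-3306) counts. After thinning, medians of 4557 and 5953.5 genes were detected, so genes in general, and not Cdkn1a and Cdkn3 alone, were detected in more RO-3306 cells. The median mitochondrial share was 3.40% and 4.42%. Leaving out cells with a share over 20% gave log2 ratios of 1.85 for Cdkn1a and -2.28 for Cdkn2c. These were the values found without RO-3306 cell B3 alone, so that filter hardly changed the cells summed. The part of the difference in mitochondrial share was not tested. Thinning every cell to equal depth before summing gave 1.92 and -2.50.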

How the data were processed

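Per the file headers, the authors deposited expected counts per gene made with featureCounts 2.0.3 on the RefSeq annotation of GRCm39, over whole gene spans, with reads of several sites split into fractions. The headers record no strand or overlap option. STAR and FastQC are named in the submitters' processing notes, without versions, and libraries were made with SMART-seq v4 and read as single reads of 150 nt per the labels' protocols. Reads carry no molecular identifiers. No 2 kept libraries were identical.

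The CDK inhibitor genes, the lists and the rules were chosen with earlier results of these data known. Measured genes average at least 5 CPM over the groups. Fractional counts were rounded for intervals and for thinning to 639000 counts, percentile 10 of kept totals, which dropped 4 control and 3 RO-3306 cells. From each list, the text names up to 3 genes per direction past 2-fold with 1 sign in the 4 lettered sets, and nearest neighbours in the genome. List genes named outside this rule, such as Gadd45a, Bbc3, Btg2, Trp53, Cdk4 and Fn1, were chosen after their values were seen. Alternatives used edgeR 4.0.16 (TMM) and DESeq2 1.42.0 size factors in R 4.3.3, other weights, depths, filters, pseudocounts, mRNA lengths, and omitted sets or cells. No count test was run, since each treatment is 1 sample. mRNA length is that of the longest protein-coding GENCODE M21 transcript of a symbol. Python 3.11.15, numpy 2.4.6, pandas 2.3.3 and scipy 1.17.1 were used, and the summing and calling steps were tested on simulated data. 1 gene that the rule for likeness across cells named is not reported here.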

Additional observations from a re-analysis of the deposited data

Results flagged for a closer look

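Cdkn1a counts appeared in RO-3306 libraries that no comparison used, above the level of the left-out control libraries, and this rests on 1 library. The 11 RO-3306 libraries left out for low totals or few genes held 147 Cdkn1a counts in 4 libraries, or 126 CPM (107 to 149). The 19 left-out control libraries held 2.25 counts in 3 libraries, or 6.595 CPM (0.710 to 21.2). Of the 147 counts, 136 lay in library D4, which had 184369 counts but only 874 genes, and whose Cdkn1a level of 738 CPM was within the range of kept RO-3306 cells. The other 3 libraries held 11 counts together. Without D4 the level of the left-out RO-3306 libraries was 11.2 CPM (5.61 to 20.1), and its interval overlaps that of the left-out control libraries.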

How the results depend on the processing

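For the 23 results 599 alternative values were computed. Log2 ratios were judged by the counting interval of the reported value and shares of cells by their exact intervals. The counts of called genes were judged by a looser fold limit, which all of them met. By these rules 492 values stayed and 107 lay outside, all of the latter log2 ratios, and no called gene changed sign. Alternatives that changed only the minimum level could not move a log2 ratio. Cdkn1a and Cdkn3 stayed at least 2-fold higher and Cdkn2c at least 2-fold lower under every alternative run. Leaving out 1 cell at a time gave log2 ratios of 1.73 (without control B4) to 2.38 (without control A3) for Cdkn1a, -2.73 (without RO-3306 D6) to -1.85 (without control B1) for Cdkn2c and 1.16 to 1.65 for Cdkn3. Leaving out 1 lettered set gave 1.59 (set B) to 2.52 (set A) for Cdkn1a and 1.30 to 1.43 for Cdkn3, and for Cdkn2c the values given in the report. Relative to genes of similar mRNA length the ratios were 1.77 for Cdkn1a, -2.10 for Cdkn2c and 1.29 for Cdkn3. With cells weighted equally Cdkn1b stood at -0.12, so no direction is read for it, nor for Cdkn2d, which ran from -0.25 to 0.12 without single cells. Requiring 5 counts left the equal-depth shares within their intervals. No paired analysis was possible because the numbers in the titles name separate cells and no test was run. Depth limits what is said of Cdkn1c and Cdkn2a to the limits given beside them.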
